A study of Mus musculus with 8 samples.

Results

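Organic ion and ATP-binding cassette (ABC) transporters were examined in glomeruli of Cd151-/- and Cd151+/+ mice. Every row of the deposited signal table whose gene symbol began with Slc22a, Slco or Slc47a, or with Abca, Abcb, Abcc, Abcd or Abcg followed by a digit, was taken. This gave 115 probes for 70 of the 18120 gene symbols in the table, and 0 rows carried an Slc47a symbol. The samples were glomerular isolates of 3-week-old male mice of the FVB/N strain, 4 homozygous for a deletion of Cd151, which encodes a tetraspanin, and 4 wild type, and no other allele or treatment is named for either genotype. Glomeruli had been purified by magnetic beads perfused through the heart, and RNA of each mouse was hybridised to its own Illumina MouseRef-8 v1.1 array. The study asked which transcripts differ at an early stage of the glomerular disease that follows loss of Cd151 on this strain. The labels call the mice biological replicates.

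The Slc22 family carries organic anions, cations and zwitterions across the plasma membrane. In the proximal tubule, the organic anion transporters Slc22a6 (OAT1) and Slc22a8 (OAT3) and the cation transporter Slc22a2 (OCT2) take up drugs, toxins and metabolites from the blood side, and other members together with ABC pumps pass them to the urine or recover urate, carnitine and nicotinate from it. The Slco family takes up prostaglandins, thyroid hormones and conjugates of bile acids and steroids, while the ABC proteins use ATP to move drugs, sterols, lipids and fatty acids out of the cell or into organelles. The kidney genes of this kind are known for tubule cells rather than for glomerular cells.

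Cd151 itself was detected in 4 of 4 Cd151+/+ mice and in no Cd151-/- mouse by each of its 3 probes, and was at least 87.8-fold, 99.9-fold and 523-fold lower in Cd151-/- glomeruli, such a bound being the mean of the genotype with signal over that of the other genotype with each of its arrays raised to its lowest detected signal. Each array detected between 11291 and 12359 probes, counted where the detection p-value did not exceed 0.05. The background signal fell into 2 ranges that cut across genotype. Cd151+/+ mice 1 and 2 and Cd151-/- mice 3 and 4 had a background of 59.0 to 69.5, whereas Cd151+/+ mice 3 and 4 and Cd151-/- mice 1 and 2 had one of 123 to 135. Differences within each set of 4 arrays are therefore given beside the results they touch. Markers of the labelled tissue were present, with 10 of the 12 podocyte genes, 11 of 11 endothelial genes and 7 of 8 mesangial genes on the array detected in at least 1 mouse. The median log2 difference between genotypes was -0.22 over the podocyte markers, -0.36 over the endothelial, -0.20 over the mesangial, 0.05 over the leukocyte, -0.63 over the erythroid, -0.12 over the loop and distal tubule markers and -0.98 over 8 immediate early genes.

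Markers of the proximal tubule were present in all 8 isolates and differed among mice. Of 19 such markers on the array, none of which is a transporter studied here, 17 were detected in at least 1 mouse. Their mean log2 signal was 8.82, 9.16, 9.53 and 10.09 in Cd151+/+ mice 1 to 4 and 10.06, 9.45, 9.51 and 10.94 in Cd151-/- mice 1 to 4. The genotypes overlapped, Cd151+/+ mouse 1 had the lowest and Cd151-/- mouse 4 the highest value, and their summed signal lay at 32493 to 89820 in Cd151+/+ mice, against 50970 to 109230 in the Cd151-/- group. In Cd151-/- mice, 15 of the 17 were higher and 2 lower, with a median log2 difference of 0.61. On the higher side, 1 reached an unadjusted limma p of 0.05, against 1.9% of all genes tested. The defining endocytic receptor Lrp2 (megalin) was detected in no Cd151+/+ and 2 Cd151-/- mice, Pck1 likewise in none and 2, Gatm in none and 1, and Fut9 and Slc7a13 in no mouse. Lrp2, Pck1 and Gatm count among the 15 higher markers. The median of 0.61 is the value of Pck1, which was at least 1.13-fold higher, while Lrp2 and Gatm allowed no bound. A median with these markers at their bounds was not computed. Because whole isolates were measured, fewer cells of a type and less RNA per cell cannot be told apart.

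By the probe reported for each, 29 of the 70 transporter genes were detected in 8 of 8 mice, 15 in some mice and 26 in none. The 26 included the multidrug pumps Abcb1a and Abcg2, the Abcb1a relative Abcb4, the bile salt pump Abcb11, the cholesterol exporter Abca1, the organic cation transporter Slc22a3, the kidney carrier Slco4c1 and 5 of the 6 Slco1 genes on the array that carry organic anions in liver, kidney and brain (Slco1a1, Slco1a4, Slco1a6, Slco1b2 and Slco1c1). The others without a detecting mouse were Abca5, Abca6, Abca8a, Abca8b, Abca13, Abca14, Abca16, Abcc8, Abcc12, Abcg3, Slc22a9, Slc22a14, Slco6b1 and Slco6c1. A probe that is not above background gives no statement that the transcript is absent. In the Slc22 family 12 of 15 genes were detected, 10 of them in all 8 mice, against 5 of 13 Slco genes, of which 3 were detected in all 8. Among ABC families, 7 of 15 Abca, 5 of 8 Abcb, 7 of 9 Abcc, 4 of 4 Abcd and 4 of 6 Abcg genes were detected. Among the 15 genes seen in only some mice, 8 were detected in more Cd151-/- mice and 3 in more Cd151+/+ mice. The same count was not made over all genes, and the arrays differed in how many probes they detected, so this split is not a trait shown for transporters.

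**Figure D1:**
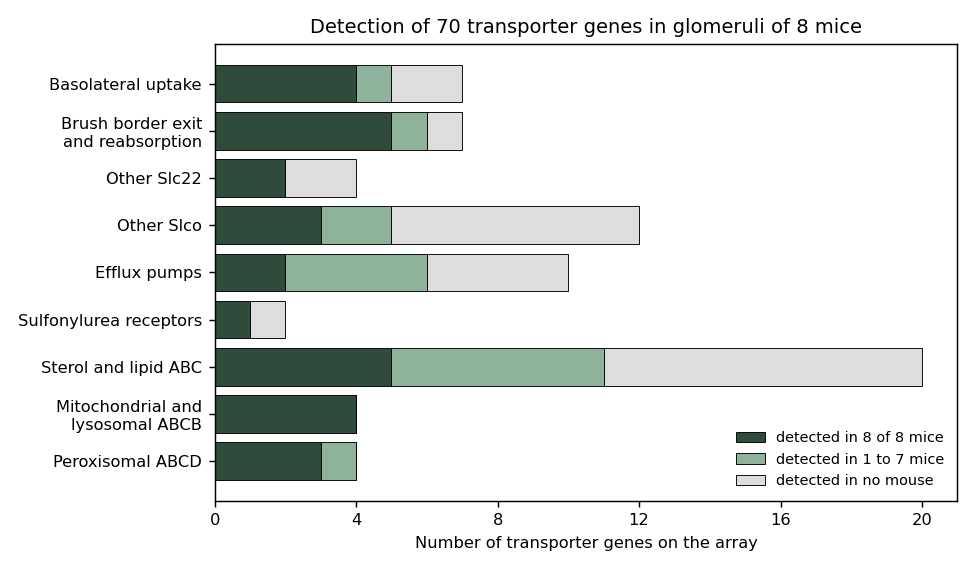
Number of transporter genes (x axis) in each role (y axis) whose probe was detected in 8 of 8 mice, in 1 to 7 mice or in no mouse. Of 70 genes, 29 lay in the first class and 26 in the last, and 9 of the latter were sterol and lipid ABC transporters.

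The 44 detected genes were tested with limma over the whole table, 1 probe per gene, and the log2 difference is Cd151-/- minus Cd151+/+. None passed Benjamini-Hochberg adjustment over the 14967 probes tested, a threshold passed by 3 of all 11240 genes tested (0.0267%). At an unadjusted limma p of 0.05 or lower, 7 of the 44 (15.9%) were higher in Cd151-/- mice, against 1.9% of all genes tested, and 0 were lower, against 2.47%, although array weights gave 6 lower genes and the background set as a block 4. The 7 genes were Slc22a8, Slc22a13, Slc22a19, Abcg5, Abcg8, Abcb1b and Slco2b1, and 2 of them, Abcg8 and Slco2b1, were detected in no Cd151+/+ mouse. In 1 gene, Slc22a8, all Cd151-/- mice lay above all Cd151+/+ mice (2.27% of the 44, against 0.925% of all genes), and in 0 genes all lay below (against 1.34%). The adjusted p in limma was 0.744 for Slc22a8 and between 0.918 and 0.992 for the others, and is not repeated at each gene. The difference was above 0 in 29 genes and below 0 in 15. Its median was 0.19, or 0.16 with the 8 genes whose reported probe was undetected in 1 genotype set at their bound, against -0.0018 over all genes tested. It was 0.03 over all 70 genes when no detection filter was applied. The count of 7 fell to 2 without Cd151+/+ mouse 2 and to 3 without Cd151-/- mouse 1, and was 12 when arrays were weighted by quality, a fit in which the median was -0.0039. The shares of 1.9% and 2.47% belong to the fit that gave 7 and 0. No share of all genes was computed for the other fits, so their counts cannot be set against one.

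**Figure D2:**
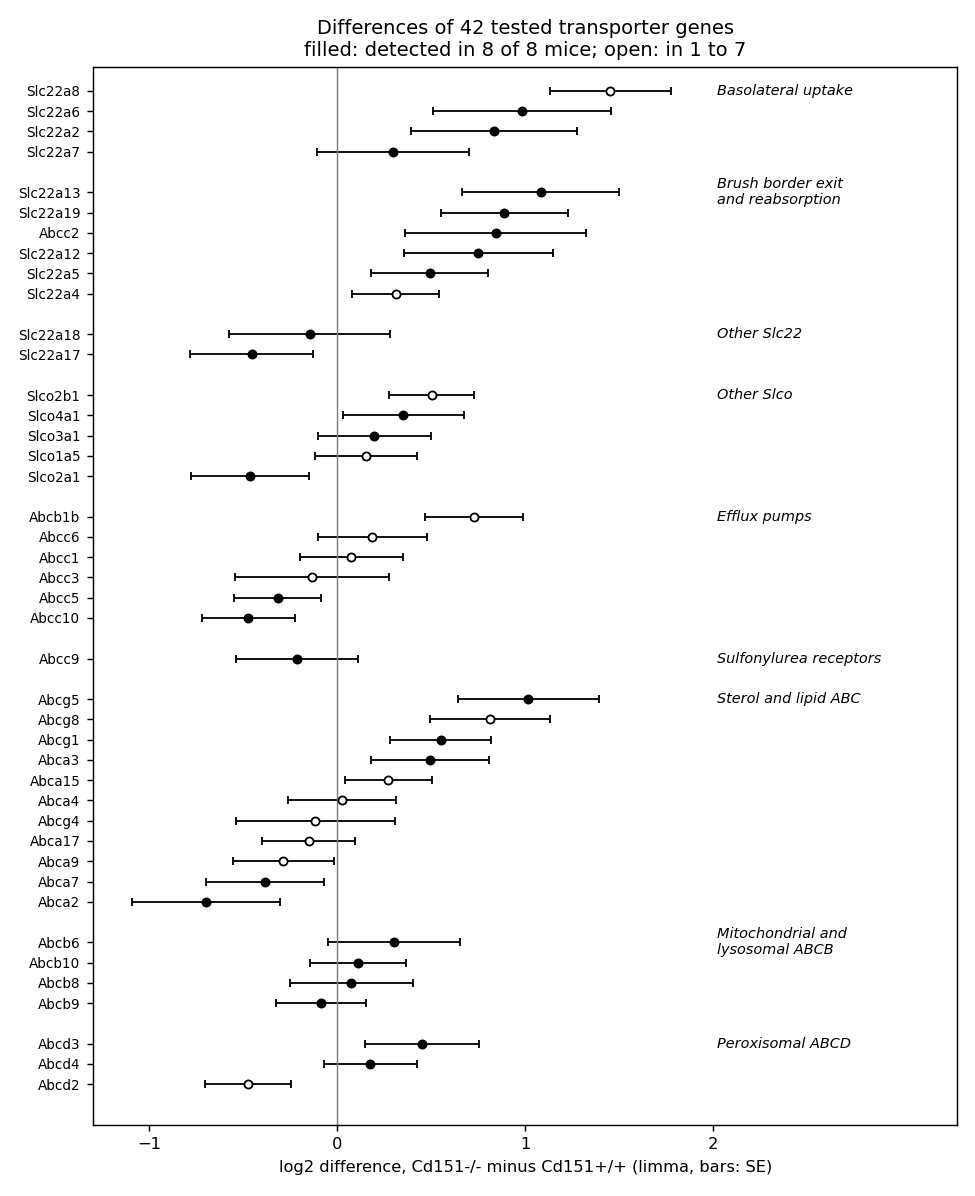
Log2 difference between Cd151-/- and Cd151+/+ glomeruli (x axis, with the standard error of the limma fit) for 42 tested genes (y axis), grouped by role. All 10 genes of basolateral uptake and brush border exit drawn lie above 0, from 0.30 to 1.45, while genes of other roles lie on both sides of it.

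Genes of basolateral uptake were higher in Cd151-/- mice in 5 of 5 detected cases, by 0.30 to 1.45 on the log2 scale, with 1 gene at the unadjusted threshold. Slc22a8, which exchanges dicarboxylates for organic anions such as drugs and sulfated steroids, had log2 signals of 4.60, 4.71, 4.83 and 5.68 in Cd151+/+ mice 1 to 4 and of 7.15, 6.23, 5.91 and 6.34 in Cd151-/- mice 1 to 4. It was detected in 1 Cd151+/+ mouse, mouse 4, and in 4 of 4 Cd151-/- mice, and the groups did not overlap. Genotypes differed by 1.45 ± 0.32 (SE), with an adjusted p of 0.744 in limma and an exact two-sided permutation p of 0.0286, the smallest that 70 relabelings of 4 against 4 mice can give. The size is uncertain, because the values of Cd151+/+ mice 1 to 3 were not above background. It was 0.92 with undetected values raised to the lowest detected signal of their array, and 0.68 without background correction. Within the lower and higher background sets it was 1.47 and 1.43. Significance analysis of microarrays (SAM) at a false discovery rate under 0.2 called Slc22a8 as the only one of these genes, among 6 probes called higher (0.0401% of those tested).

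Slc22a6, which takes up organic anions from blood in exchange for dicarboxylates and lies next to Slc22a8 on chromosome 19, had log2 signals of 10.46, 11.21, 11.54 and 11.94 in Cd151+/+ mice and of 12.39, 11.39, 11.66 and 13.63 in Cd151-/- mice. The groups overlapped, and Cd151-/- mouse 4 stood highest. The difference came to 0.98 ± 0.47 (SE), and was 1.81 within the lower and 0.15 within the higher background set. The start sites of both genes are 24.81 kb apart. The sequences that precede them are shown because the genes are neighbours that differed in the same direction with unequal patterns over mice. They are the 250 bases before the annotated start site on the plus strand of GRCm38.p6, from RefSeq, at chr19:8592932-8593181 for Slc22a8 and chr19:8617746-8617995 for Slc22a6, and capitals mark TATAA on either strand, the core of the TATA box from which many tissue-specific promoters start.
Slc22a8: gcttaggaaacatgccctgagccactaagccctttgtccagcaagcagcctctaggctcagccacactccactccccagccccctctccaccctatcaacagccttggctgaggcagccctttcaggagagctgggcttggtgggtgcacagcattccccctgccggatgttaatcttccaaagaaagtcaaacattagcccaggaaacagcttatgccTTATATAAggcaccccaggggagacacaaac
Slc22a6: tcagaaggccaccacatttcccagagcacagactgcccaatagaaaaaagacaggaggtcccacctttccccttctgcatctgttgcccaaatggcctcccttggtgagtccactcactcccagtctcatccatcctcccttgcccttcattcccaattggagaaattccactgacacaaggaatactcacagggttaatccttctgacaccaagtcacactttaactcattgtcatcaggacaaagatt
The window of Slc22a8 holds the motif 2 times, on opposite strands and overlapping each other, shortly before the start site, and that of Slc22a6 holds 0. At least 1 match is found in 22.8% of all 32851 RefSeq windows of that length. Among the 55 transporter genes with a window, 15 have a match in any of their windows, among them Abcg5, Abcg8 and Slco2a1. The first share is per window and the second count per gene, so they cannot be set against each other. A match of these letters is a description of the sequence and not a site of binding.

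The organic cation transporter Slc22a2, which takes up metformin and other cations, had log2 signals of 7.23, 7.45, 7.77 and 8.60 in Cd151+/+ mice and of 8.65, 7.79, 8.11 and 9.83 in Cd151-/- mice. Its groups overlapped and Cd151-/- mouse 4 was again highest. The genotype difference was 0.83 ± 0.44 (SE), and was larger in the lower background set, at 1.64, than in the higher set, at 0.03, a contrast between sets that was not tested. Its neighbour on chromosome 17, Slc22a3, was not detected. Slc22a7 (OAT2), detected in 8 mice, differed by 0.30 ± 0.41 (SE), a direction that turned with array weights.

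Genes of exit and reabsorption at the brush border were above 0 in 6 of 6 detected cases, with a median of 0.80 and 2 genes at the unadjusted threshold. Slc22a13 (OAT10), which exchanges urate and nicotinate, had log2 signals of 8.92, 8.29, 8.86 and 10.11 in Cd151+/+ mice and of 11.09, 10.01, 9.47 and 9.94 in Cd151-/- mice. Cd151+/+ mouse 4 lay within the Cd151-/- range and the other 3 lay below it. The difference was 1.08 ± 0.42 (SE), and was 1.10 and 1.06 within the lower and higher background sets. Its 3 tested probes all lay above 0, from 0.58 to 1.08. Only the reported probe was at the unadjusted threshold, the others having an unadjusted limma p of 0.0904 and 0.159. Slc22a19 (OAT5), a rodent anion exchanger, had log2 signals of 6.93, 6.96, 7.28 and 7.90 in Cd151+/+ mice and of 8.29, 7.55, 7.80 and 8.98 in Cd151-/- mice. Cd151+/+ mouse 4 was above 2 of the Cd151-/- mice. Genotypes differed by 0.89 ± 0.34 (SE), with 1.45 and 0.33 within the sets. A second tested probe of Slc22a19 differed by 0.42 ± 0.49 (SE), with 1.00 and -0.17 within the sets, and its remaining probes were detected in no mouse. With all probes of a gene averaged, neither Slc22a13 nor Slc22a19 was at the unadjusted threshold.

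Slc22a12 (URAT1), which recovers urate from the urine, had log2 signals of 6.44, 6.95, 7.43 and 7.79 in Cd151+/+ mice and of 7.63, 7.24, 7.78 and 8.97 in Cd151-/- mice. The groups overlapped. The difference came to 0.75 ± 0.39 (SE), and was 1.68 within the lower and -0.18 within the higher background set. Abcc2 (MRP2), which pumps glutathione and glucuronide conjugates into urine and bile, had log2 signals of 7.53, 7.44, 6.96 and 8.03 in Cd151+/+ mice and of 8.10, 6.93, 8.69 and 9.61 in Cd151-/- mice. Cd151-/- mouse 2 was the lowest of all 8 mice and Cd151-/- mouse 4 the highest. Its log2 difference was 0.84 ± 0.48 (SE), with 1.67 and 0.02 within the sets. The carnitine transporter Slc22a5 (OCTN2), detected in all mice, differed by 0.49 ± 0.31 (SE), and its 3 tested probes ranged from 0.33 to 0.72. Slc22a4 (OCTN1), its relative 1 gene away on chromosome 11, was detected in 1 Cd151-/- mouse only, too faintly for a bound on the fold.

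**Figure D3:**
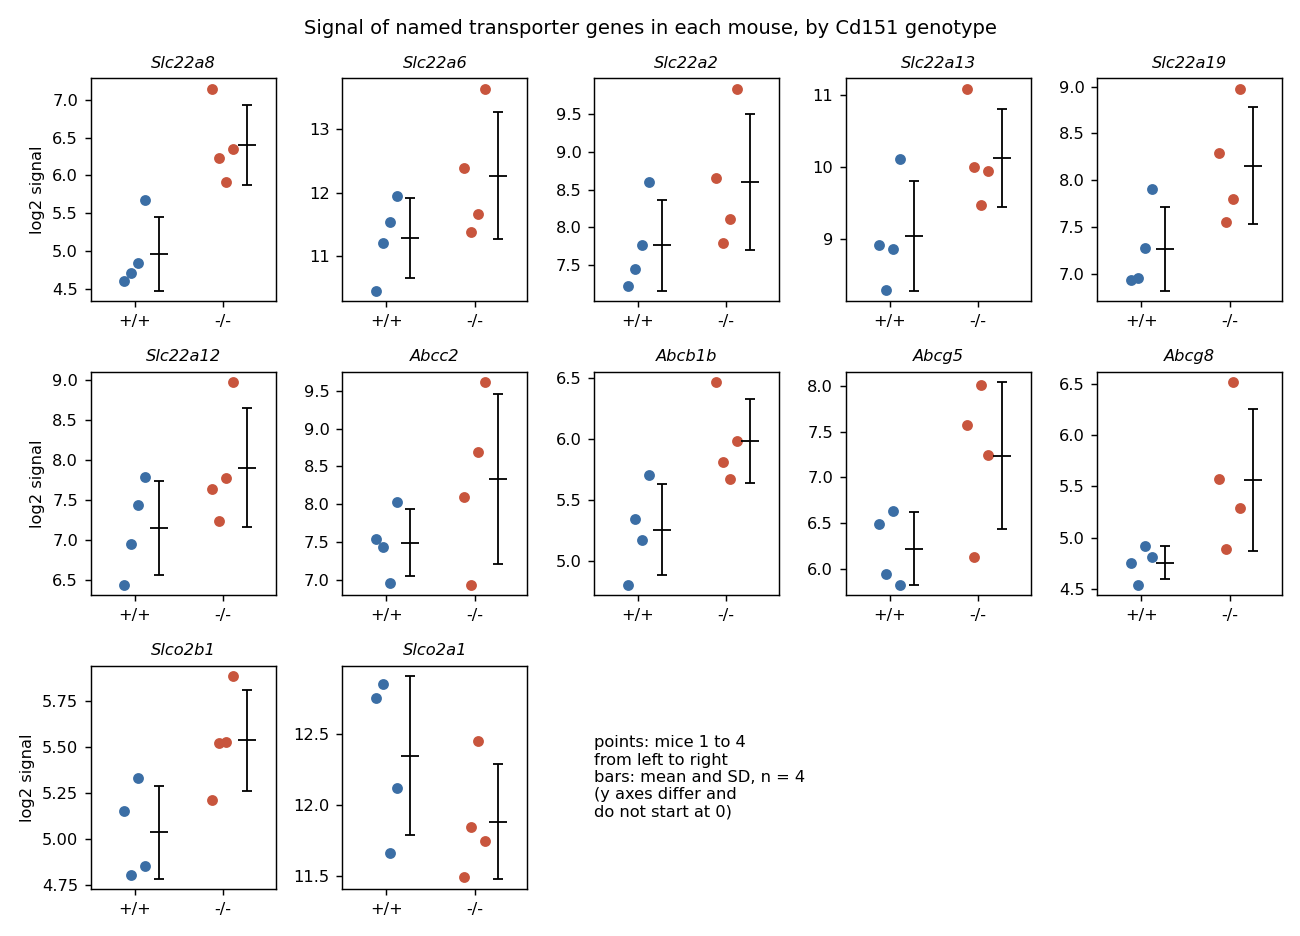
Log2 signal (y axes, which differ between panels and do not start at 0) of 12 transporter genes in Cd151+/+ and Cd151-/- mice; points are mice 1 to 4 from left to right and bars give the mean and SD of 4 mice. Only in Slc22a8 do the genotypes not overlap, from 4.60 to 5.68 against 5.91 to 7.15.

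Several of the kidney uptake and exit genes had the same extremes over mice as the proximal tubule markers. For Slc22a6, Slc22a2, Slc22a12 and Slc22a19, Cd151+/+ mouse 1, with the lowest marker mean, had the lowest signal of all 8 mice and Cd151-/- mouse 4, with the highest marker mean, the highest. The difference in the marker mean, 0.59 over all mice, was 1.24 within the lower and -0.05 within the higher background set. Slc22a8 and Slc22a13 were highest in Cd151-/- mouse 1, and Abcg5 and Abcg8 in Cd151-/- mouse 3, whose marker mean lay below those of Cd151+/+ mice 3 and 4. A second limma fit, chosen after the values were seen, therefore carried each mouse's marker mean as a covariate beside genotype. In it the difference was 0.20 ± 0.22 (SE) for Slc22a6, 0.11 ± 0.21 for Slc22a2 and 0.15 ± 0.25 for Slc22a12. It was 0.77 ± 0.46 for Slc22a13 and 0.38 ± 0.21 for Slc22a19. For Slc22a8, which was not above background in 3 Cd151+/+ mice, it was 1.18 ± 0.33, or 0.80 ± 0.29 with undetected values raised as above. Over the 11 uptake and exit genes tested, the median went from 0.84 without to 0.22 with the covariate, and 11 of 11 remained above 0. Over all 44 genes it went from 0.19 to 0.08. No gene passed adjustment in this fit either (adjusted p = 1.00 for each gene in limma), and at an unadjusted p of 0.05 or lower it held 5 genes that were higher, Slc22a8, Abcg5, Abcg8, Abcg1 and Slco4a1, and 1 that was lower, Slc22a18. The share of all genes called in this fit was not computed, so these counts cannot be set against it. The marker mean itself differed with genotype, so the fit divides a shared difference between both terms, and the part of tubule RNA in the differences was not tested beyond it. The study's methods state that each isolate was washed until it reached a set minimum share of glomeruli, without giving the share reached in each mouse.

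**Figure D4:**
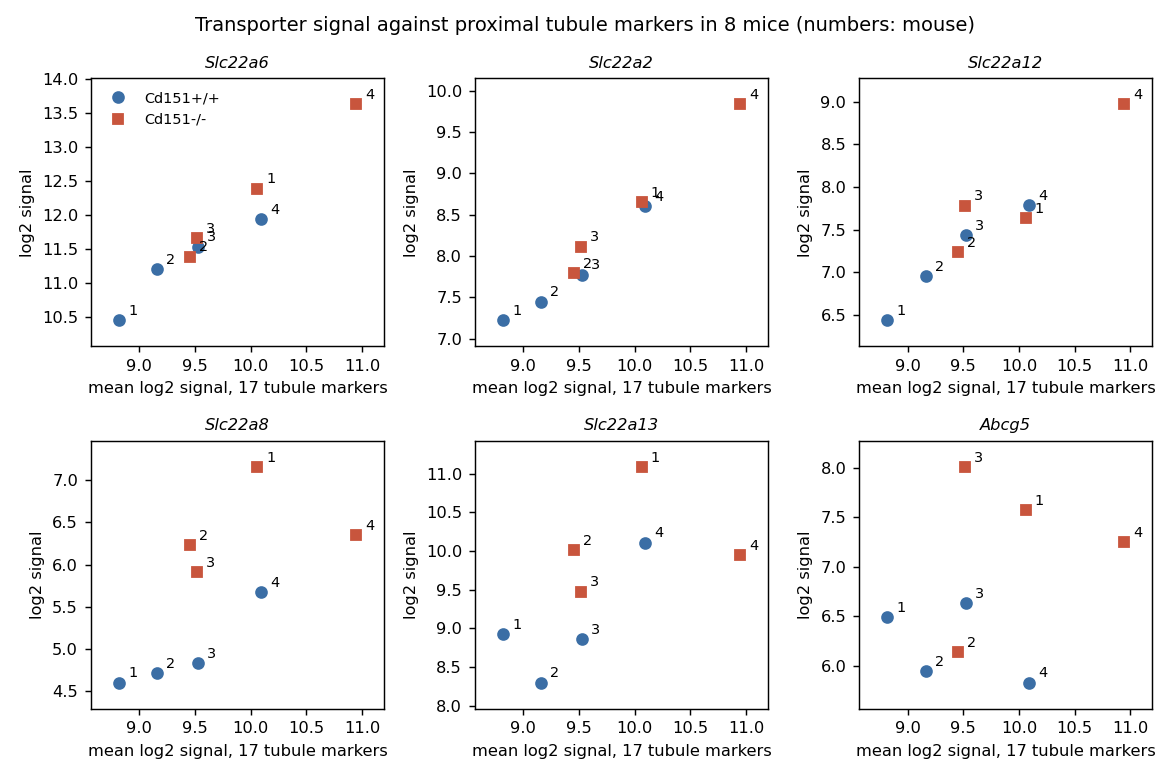
Log2 signal of 6 transporter genes (y axes, which differ between panels) against the mean log2 signal of 17 proximal tubule markers (x axis) in each mouse; circles are Cd151+/+ and squares Cd151-/- mice, with the mouse number beside each. Slc22a6 and Slc22a2 climb with the markers in both genotypes, and the Slc22a8 values of Cd151+/+ mice 1 to 3 are not above background.

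**Figure D5:**
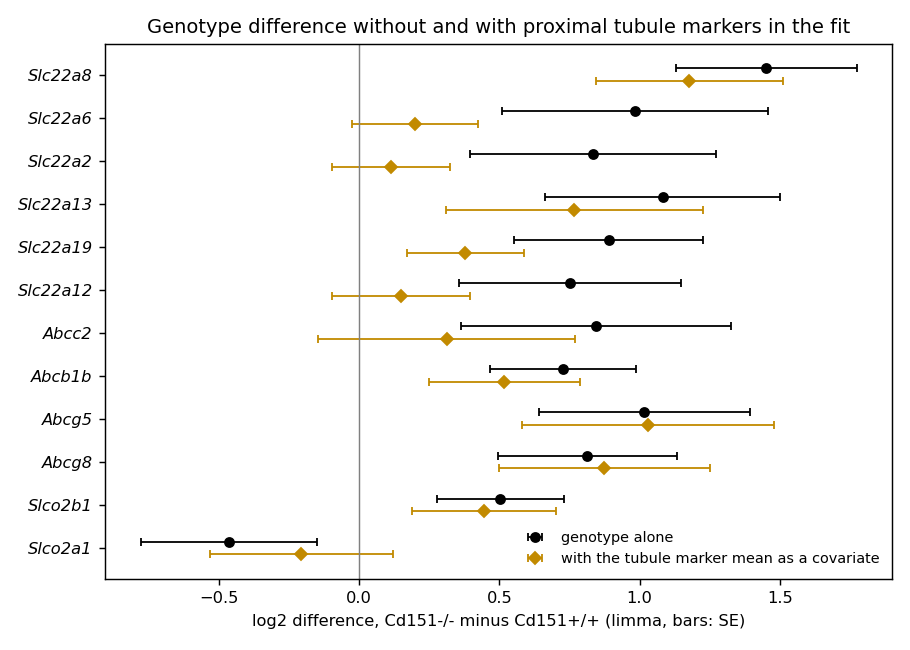
Log2 difference between genotypes (x axis, bars are SE of the limma fit) for 12 transporter genes (y axis), with genotype alone in the fit (black circles) and with the proximal tubule marker mean added as a covariate (yellow diamonds). Slc22a6 moves from 0.98 to 0.20 and Slc22a2 from 0.83 to 0.11, whereas Abcg5 lies at 1.02 and 1.03. The values of Slc22a8, Abcb1b, Abcg8 and Slco2b1 rest in part on mice in which they were not above background.

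Sterol and lipid ABC transporters were split, with 6 of 11 detected genes above 0 and 5 below and a median of 0.02. The sterol exporters Abcg5 and Abcg8 work as a heterodimer that returns plant sterols and cholesterol to bile and gut. Abcg5 had log2 signals of 6.49, 5.94, 6.63 and 5.83 in Cd151+/+ mice and of 7.57, 6.13, 8.01 and 7.25 in Cd151-/- mice. Cd151-/- mouse 2 lay within the Cd151+/+ range and the other 3 above it. The genotype difference was 1.02 ± 0.38 (SE), with 1.41 and 0.63 within the lower and higher background sets, and 1.03 ± 0.45 with the tubule marker covariate. Abcg8 had log2 signals of 4.75, 4.54, 4.92 and 4.81 in Cd151+/+ mice and of 5.57, 4.89, 6.52 and 5.28 in Cd151-/- mice. It was detected in no Cd151+/+ mouse and in 2 Cd151-/- mice, mice 1 and 3, so that it entered the test only through the Cd151-/- group, and was at least 1.14-fold higher there.

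Abcg5 and Abcg8 are transcribed away from each other on chromosome 17, from start sites with 109 bases between them, and this stretch is shown because it holds the sequence before the start sites of both genes. It lies at chr17:84683012-84683120 of GRCm38.p6 and is written on the plus strand, the strand of Abcg8, with capitals for the motif AGATAA on either strand, which GATA factors are known to bind.
Abcg5 to Abcg8: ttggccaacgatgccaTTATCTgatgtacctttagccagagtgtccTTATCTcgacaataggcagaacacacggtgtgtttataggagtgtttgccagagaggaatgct
The motif occurs 2 times, both on the minus strand. Among the 32851 RefSeq windows, 0.186% hold at least 2 copies in the 109 bases before the start site and 3.98% at least 1. Here too a match describes the sequence and is not a site of binding. A link between the motif and the differences in signal was not tested.

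Abcg1, which passes cholesterol to high-density lipoprotein, differed by 0.55 ± 0.27 (SE), with 0.17 within the lower and 0.94 within the higher background set and 0.76 ± 0.28 with the marker covariate. Abca3, which loads lipid into storage organelles, differed by 0.49 ± 0.31 without and 0.08 ± 0.24 with the covariate. Abca2 and Abca7, lipid transporters of endosomes and the plasma membrane, were lower by 0.70 ± 0.39 and 0.39 ± 0.31 on the log2 scale. None of these 4 passed adjustment. Abca15 was detected in 3 Cd151-/- mice and no Cd151+/+ mouse by the probe reported, but in 2 mice of each genotype by a second probe, and the differences, 0.27 and 0.24, turned for the probe reported with scaling to the 75th percentile. The 3 tested probes of Abca9 disagreed, from -0.29 to 0.20, and 1 of them was detected in Cd151+/+ mice only and 1 in Cd151-/- mice only. Abca4, Abca17 and Abcg4 each differed by less than 0.25, a size chosen after the values were seen as the smallest to be given by gene.

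Multidrug and conjugate efflux pumps were also split, 3 above and 3 below 0, with a median of -0.03. Abcb1b, a P-glycoprotein that exports many drugs, had log2 signals of 4.80, 5.34, 5.17 and 5.70 in Cd151+/+ mice and of 6.46, 5.81, 5.67 and 5.98 in Cd151-/- mice. It was detected in 1 Cd151+/+ mouse and 4 of 4 Cd151-/- mice, and the groups overlapped by Cd151+/+ mouse 4, just above the lowest Cd151-/- mouse. The difference was 0.73 ± 0.26 (SE), with 0.75 and 0.70 within the background sets and 0.52 ± 0.27 with the marker covariate. Its size is uncertain, because most Cd151+/+ values were not above background. With undetected values raised to the lowest detected signal of their array, Abcb1b differed by 0.49, or by 0.38 ± 0.22 with the covariate added. Without background correction, Abcb1b differed by 0.31. Its neighbours and close relatives on chromosome 5, Abcb1a and Abcb4, were not detected in any mouse. Whether the Abcb1b probe also binds transcripts of Abcb1a was not tested, as no probe sequences were used here. Abcc10 and Abcc5, exporters of conjugates and cyclic nucleotides, were lower by 0.47 ± 0.25 and 0.32 ± 0.23 (SE) on the log2 scale, and Abcc1, Abcc3 and Abcc6 differed by less than 0.25. Abcc9, the sulfonylurea receptor of vascular potassium channels, was detected in all mice and differed by -0.21.

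Among the Slco genes outside the tubule list, 4 of 5 detected genes were above 0 and 1 below, with a median of 0.20. Slco2b1, a carrier of steroid sulfates, had log2 signals of 5.15, 4.80, 5.33 and 4.85 in Cd151+/+ mice and of 5.21, 5.52, 5.53 and 5.89 in Cd151-/- mice. It was detected in no Cd151+/+ and 3 Cd151-/- mice, was at least 1.11-fold higher in the latter, and its groups overlapped. Slco2a1, the prostaglandin transporter of endothelium, had log2 signals of 12.76, 12.85, 11.67 and 12.12 in Cd151+/+ mice and of 11.50, 11.84, 12.45 and 11.75 in Cd151-/- mice. The groups overlapped. Genotypes differed by -0.46 ± 0.31 (SE), with -0.71 and -0.22 within the background sets, and the endothelial markers beside it had a median of -0.36. Slco4a1, a thyroid hormone carrier, differed by 0.35 ± 0.32 (SE) with -0.47 and 1.17 within the sets, and its 2 tested probes disagreed, from -0.16 to 0.35. Slco1a5 differed by less than 0.25, and the 2 tested probes of Slco3a1 disagreed, from -0.32 to 0.20.

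Slc22a17, a receptor for lipocalin, differed by -0.46 ± 0.33 (SE). The imprinted Slc22a18 differed by -0.15 ± 0.43, or by -0.83 ± 0.23 with the marker covariate, and its 2 probes disagreed, from -0.15 to 0.24. Slc22a18 lies within 10 Mb of Cd151 on the same chromosome, and the distance of the other genes to Cd151 was not computed. Among ABC proteins of organelles, the peroxisomal fatty acid importer Abcd3 (PMP70) differed by 0.45 ± 0.30 without and 0.04 ± 0.22 with the covariate. The related Abcd2 was detected in 1 Cd151+/+ mouse only and allowed no bound, and Abcd4 differed by less than 0.25. The median over the 4 Abcd genes was -0.10, or 0.09 with Abcd2 set to no difference. Of the mitochondrial and lysosomal members, Abcb6, which carries porphyrins, differed by 0.30 ± 0.35, a direction that turned with array weights, and Abcb8, Abcb9 and Abcb10 by less than 0.25. The tested probes of Abcb8 disagreed, from -0.17 to 0.08, as did those of Abcb9, from -0.09 to 0.07.

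Genes that serve these transporters showed no common direction. Of 13 detected exchange partners and scaffolds, 8 were above and 5 below 0, with a median of 0.11, and 1 on each side was at the unadjusted threshold. Over all genes tested, that threshold called 1.9% higher and 2.47% lower. In lists as small as those given here, 1 call says little about the list. The dicarboxylate transporters Slc13a2 and Slc13a3, which supply the counter-ion of the anion exchangers, differed by 1.06 ± 0.46 and 1.13 ± 0.55 (SE), the second being also one of the tubule markers. The scaffold Pdzk1, which binds brush border transporters, differed by 0.67 ± 0.42, whereas the scaffold Slc9a3r2 differed by -0.60 ± 0.29. Bsg, a chaperone of lactate transporters, was detected in 4 Cd151+/+ mice and 1 Cd151-/- mouse and differed by -0.56 ± 0.23. Of 14 detected nuclear receptors and transcription factors known to regulate transporter genes, 5 were above and 9 below 0, with a median of -0.03. Their differences ranged from -0.57 to 1.00, and 0 higher and 1 lower gene were at the unadjusted threshold. The genes named next are examples, and neither Hnf4a nor Nr1h4 was at that threshold. Hnf4a, a regulator of tubule and liver genes, differed by 1.00 ± 0.48 with 1.66 and 0.34 within the lower and higher background sets, and Nr1h4, the bile acid receptor, by 0.51 ± 0.45. The liver X receptor Nr1h2, which responds to sterols, was lower in all Cd151-/- mice than in all Cd151+/+ mice, with a difference of -0.32 ± 0.20. Such a separation was found in 1.34% of all genes tested. None of these genes passed adjustment.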

How the data were processed

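Glomerular RNA of 8 mice, 4 of each genotype, had been hybridised to 8 arrays. The authors deposited a mean bead intensity and a detection p-value per probe for each array, exported from GenomeStudio per the labels, without normalisation. Of their methods, cubic spline normalisation and SAM were run here as alternatives. Intensities were corrected by normexp with the background inferred from the detection p-values, given an offset of 16, quantile normalised and put on the log2 scale in limma 3.58.1 (R 4.3.3). Of 25697 probes, the 14967 that at least 1 array detected (detection p-value up to 0.05) were fitted by genotype with lmFit and eBayes, and p-values were adjusted by Benjamini-Hochberg over all of them. No depth exists for arrays, so the number of mice limits the precision. The probe with the highest mean of those tested stood for a gene. Values per mouse are given for genes at an unadjusted p of 0.05 or lower, for genes whose groups did not overlap by at least 0.5 and for a list of well-known transporters, and the remaining differences by a size chosen after the values were seen. Bounds are on the log2 scale of the corrected signal, and the offset makes differences of dim probes too small. The transporter genes, roles and marker lists were chosen with earlier results of these data known. Of the 70 symbols, 69 matched RefSeq (GRCm38.p6) and Slc22a9 did not. Mouse numbers 1 to 4 occur in both genotypes, and the deviations of same-numbered mice from their group means correlated at -0.58, -0.40, -0.53 and -0.0086, so the numbers were not taken to pair mice. Counts and medians cover all genes tested, and 2 of the tested transporter genes and some other results are not reported here. The fit was tested on simulated data. Alternatives were the background correction, normalisation, offset, detection and intensity filters, blocks, array weights, variance model, probe averaging, 1 mouse left out and, chosen after seeing the data, the tubule marker covariate and a floor for undetected values. Figures were drawn with matplotlib 3.10.9.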

Additional observations from a re-analysis of the deposited data

Results flagged for a closer look

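The leukocyte markers in Cd151+/+ mice were set apart by 1 mouse. Their mean log2 signal was 7.14, 7.21, 7.69 and 7.11 in Cd151+/+ mice 1 to 4, and the gap from mouse 3 to its nearest neighbour made up 0.8295 of the range of the 4 mice. In Cd151-/- mice the values were 7.23, 7.54, 7.28 and 7.19. Of 46 groups of 4 mice checked in this way, covering single transporter genes and 10 gene lists, this was the 1 that passed, and chance marks about 1 in 20.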

How the results depend on the processing

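Of 23 alternatives, Slc22a8 was at an unadjusted p of 0.05 or lower in 23, with a log2 difference between 0.68 and 1.91 and an adjusted p between 0.0675 and 1.00 in limma. Abcb1b, Abcg5 and Slc22a19 were so in 18, Slc22a13 in 16, Abcg8 in 15 and Slco2b1 in 6. None of the 12 genes given per mouse turned its direction. The count of transporter genes higher at that threshold, 7, was 4 with 75th percentile scaling and 12 with array weights, and 2 to 10 with 1 mouse left out. The lowest came when Cd151+/+ mouse 2 was dropped and the highest when Cd151-/- mouse 2 was, while dropping Cd151-/- mouse 1 gave 3 and dropping Cd151+/+ mouse 1 gave 4. The count lower, 0, was 1 without a detection filter, 4 with the background set as a block, 6 with array weights and 1 with the tubule marker covariate, and 0 to 4 with 1 mouse left out, the highest on dropping Cd151+/+ mouse 3. With undetected values raised to the lowest detected signal of their array, also chosen after seeing the data like the covariate, 5 were higher and 0 lower, and 4 and 1 with the covariate added. No share of all genes was computed for these limma alternatives, so their counts cannot be set against one. No gene passed adjustment in any limma fit, and SAM called 1. The median difference, 0.19, was -0.0039 with array weights and 0.08 to 0.29 with 1 mouse left out. Differences turned for Abca15 with 75th percentile scaling (-0.12) and with the floor and covariate (-0.085), for Abca9 with that scaling (0.071), the floor (0.089), the floor and covariate (0.22) and with 1 mouse left out (-0.46 to 0.21), for Abcb6 with array weights (-0.067) and with 1 mouse left out (-0.0038 to 0.50), and for Slc22a7 with array weights (-0.18) and with 1 mouse left out (-0.0017 to 0.61). With the floor, Slc22a4 turned as well (-0.0038). The causes were not tested.

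With the mouse number as a replicate block, 9 transporter genes were higher and 0 lower at the unadjusted threshold and 0 passed adjustment. The share of all genes called with this block was not computed. The block changed no call after adjustment.

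With 4 mice a genotype and probes such as Slc22a8, Abcb1b and Abcg8 near the background, differences are uncertain in size. Array background and tubule markers both varied within genotypes, and 1 probe stood for most genes.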

Other observations

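Among the partner genes, a pair that was not described above also lay above 0, and was picked here after the values were seen. Slc17a3, a urate and anion exporter of the brush border, was detected in 3 Cd151+/+ and 4 Cd151-/- mice and differed by 1.07 ± 0.66 (SE), with 1.96 within the lower and 0.17 within the higher background set. Slc28a1, a nucleoside transporter of the same membrane, was detected in 1 Cd151+/+ and 3 Cd151-/- mice and differed by 1.00 ± 0.59, with 1.28 and 0.73 within the sets. Both had an adjusted p of 0.918 in limma.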
